A study of Mus musculus with 31 samples.

Results

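The mouse mitochondrial genome carries 37 genes, and their transcripts are described here across livers and skeletal muscles of mice that lack the nuclear receptor ERRα or carry a form of it with 3 serines replaced. The genes were taken as all those whose symbol starts with mt- in the GENCODE vM21 annotation of GRCm38, which gave 37 of the 55288 gene identifiers in the count tables. They comprise 13 mRNAs of 204 to 1824 bases, 2 rRNAs of 955 and 1582 bases and 22 tRNAs of 59 to 75 bases. The table of the insulin experiment lists 13 of them, the mRNAs, among 35275 identifiers, and the table of the ERRα3SA experiment lists all 37 among 54532.

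RNA-seq was performed in 2 experiments on male C57BL/6N mice of 2 to 3 months fed a standard diet. In the first, wild-type (WT) mice and whole-body ERRα knockout (KO) mice received saline or insulin (1 unit/kg, intraperitoneal) after a 12 h fast, and livers were collected after another 4 h at zeitgeber time 6 (4 WT saline, 4 WT insulin, 4 KO saline and 3 KO insulin samples, the last numbered 1, 2 and 4). In the second, liver and muscle (gastrocnemius and soleus) were taken at zeitgeber time 2 to 6 from mice carrying the Err-alpha 3SA allele, a knock-in in which 3 serines of ERRα are replaced by alanine (S19A, S22A and S26A), and from WT littermates, without any treatment, with 4 samples in each of the 4 groups. The KO and the knock-in are present in every cell of the body, and each tissue was sequenced in bulk, so that fewer cells of a type and less RNA per cell cannot be told apart. Whether a numbered liver and muscle of one genotype came from one mouse is not given in the labels.

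Mitochondrial DNA is transcribed from both strands by a single-subunit RNA polymerase, POLRMT, with the factors TFAM and TFB2M, into long precursors that span most of a strand. tRNAs lie between the mRNAs and rRNAs, and enzymes that cut at either end of each tRNA release the others. The mRNAs encode subunits of complexes I (mt-Nd genes), III (mt-Cytb), IV (mt-Co genes) and V (mt-Atp genes) of oxidative phosphorylation, whose remaining subunits are encoded in the nucleus, where many of them are known targets of ERRα.

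On GRCm38, 12 mRNAs, both rRNAs and 14 tRNAs lie on the plus strand of chrM, and mt-Nd6 and 8 tRNAs on the minus strand. The tRNA genes with an adjusted p under 0.05 in ERRα3SA muscle without replicate 1 are printed 5′ to 3′ with the anticodon in capitals, namely mt-Tl2 for leucine (chrM:11671-11741, plus strand), mt-Te for glutamate (chrM:14071-14139, minus strand), mt-Tc for cysteine (chrM:5192-5257, minus strand) and mt-Ty for tyrosine (chrM:5260-5326, minus strand), together with mt-Tp for proline (chrM:15356-15422, minus strand), the tRNA with the most counts, and mt-Tn for asparagine (chrM:5089-5159, minus strand).
mt-Tl2: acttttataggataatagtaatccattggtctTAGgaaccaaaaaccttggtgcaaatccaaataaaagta
mt-Te: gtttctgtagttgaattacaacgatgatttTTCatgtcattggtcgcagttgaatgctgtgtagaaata
mt-Tc: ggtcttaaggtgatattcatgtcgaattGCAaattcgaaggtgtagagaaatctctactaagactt
mt-Ty: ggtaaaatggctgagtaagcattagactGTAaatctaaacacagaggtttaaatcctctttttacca
mt-Tp: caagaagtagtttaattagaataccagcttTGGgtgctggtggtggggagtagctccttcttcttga
mt-Tn: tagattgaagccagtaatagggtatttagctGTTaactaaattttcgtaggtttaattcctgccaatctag

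These 6 sequences are 66 to 71 bases long and touch or nearly touch their neighbours. mt-Tl2 ends on the base before mt-Nd5 begins and shares 1 base with mt-Ts2, mt-Te ends on the base before mt-Nd6 begins on its strand, and mt-Tn, mt-Tc and mt-Ty follow each other between mt-Nd2 and mt-Co1. The genes of 9 neighbouring pairs share bases, from 1 base (mt-Atp6 and mt-Co3) to 43 (mt-Atp8 and mt-Atp6). Reads on shared bases can be assigned to either gene or left uncounted, and the kit named in the study's methods does not mark the strand, so reads from a transcript and from its antisense partner cannot be told apart.

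The gene mt-Atp8, which encodes a small subunit of complex V, forms with mt-Atp6 the pair of genes that share the most bases. Its whole gene (chrM:7766-7969, plus strand) is printed with the 43 bases that also belong to mt-Atp6 (chrM:7927-8607, plus strand) in capitals.
mt-Atp8: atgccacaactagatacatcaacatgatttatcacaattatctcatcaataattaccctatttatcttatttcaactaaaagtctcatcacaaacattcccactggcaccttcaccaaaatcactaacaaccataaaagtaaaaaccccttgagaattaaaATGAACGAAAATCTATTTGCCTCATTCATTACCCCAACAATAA

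A run of pseudogenes on chromosome 1 of GRCm38 is almost identical to mitochondrial genes. BLAST of the mitochondrial transcripts against all other annotated transcripts, at 98% identity over at least 50 bases, found 7 pseudogenes that run in the same order as their mitochondrial counterparts, from Gm29216 (mt-Co1) over Gm28661 (mt-Co2), Gm10925 (mt-Atp6), Gm28437 (mt-Co3), Gm28438 (mt-Nd3) and Gm10222 (mt-Nd4l) to Gm28439 (mt-Nd4). Together they span chrM:6390-11042, 4653 bases, and chr1:24611535-24616188 on the minus strand, 4654 bases. Of these 7 pairs, 5 were identical over the whole aligned length of 294 to 876 bases. The other two differ at 1 base, shown in capitals with bases counted from 1 at the 5′ end of the mitochondrial gene, which is A1066T for mt-Co1 (chrM:6390-6423, plus strand) against Gm29216 (chr1:24616155-24616188, minus strand) and T3C for mt-Nd3 (chrM:9459-9491, plus strand) against Gm28438 (chr1:24613087-24613119, minus strand).
mt-Co1: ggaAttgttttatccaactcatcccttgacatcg
Gm29216: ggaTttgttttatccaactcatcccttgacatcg
mt-Nd3: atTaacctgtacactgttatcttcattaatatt
Gm28438: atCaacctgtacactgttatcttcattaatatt

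The positions between the first and the last pseudogene are called the copied stretch, although annotated transcripts alone were searched and the bases between the pseudogenes were not compared. Of the 13 mRNAs, 6 lie wholly inside it (mt-Co2, mt-Atp8, mt-Atp6, mt-Co3, mt-Nd3 and mt-Nd4l), 2 lie partly in it (mt-Co1 and mt-Nd4) and 5 lie outside (mt-Nd1, mt-Nd2, mt-Nd5, mt-Nd6 and mt-Cytb). Both rRNAs lie outside, as do 17 of the 22 tRNAs. For mt-Atp8 the search found no match of that length, so it is placed inside by its position only. How reads that match both places were counted is not given in the sources used here.

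The libraries of the insulin experiment held 35871419 to 48317108 counts and those of the ERRα3SA experiment 20481405 to 33412022. *Esrra*, the gene of ERRα, had 1246 to 3400 counts in the WT livers of the insulin experiment and 11 to 62 in the KO livers, so the genotype labels held in all 15 libraries. Summed hepatocyte markers lay between 54788 and 97095 CPM (counts scaled to a library total of 1000000) in the livers and at most at 1.36 CPM in the muscles, where skeletal muscle fibre markers summed to 59587 to 68912 CPM. In the share of counts on mitochondrial mRNAs 3 libraries stood apart from their groups by Dixon's test, WT insulin replicate 2 and KO saline replicate 3 in liver and ERRα3SA replicate 1 in muscle. The counts of calls described for mitochondrial, nuclear subunit and RNA processing genes are given with all libraries. They are also given without WT insulin replicate 2 and ERRα3SA muscle replicate 1 where these were used. Medians of the mitochondrial mRNAs and nuclear subunits are given in the same way. The calls and the median of the mitochondrial mRNAs for KO against WT with saline are also given without KO saline replicate 3. Medians of the lists of genes that act on mitochondrial DNA and RNA are given with all libraries. Without WT insulin replicate 2 they are given for insulin in WT liver only.

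The mitochondrial transcripts took a larger share of all counts in muscle than in liver. The mRNA share was 4.82, 3.68, 4.10 and 4.70% in the WT saline livers, 3.88, 1.88, 4.05 and 4.17% in the WT insulin livers, 3.17, 3.21, 3.91 and 3.16% in the KO saline livers and 3.21, 3.14 and 3.54% in the KO insulin livers. Outside WT insulin replicate 2, at 1.88%, no library of the experiment was under 3.14%. Group means were 4.32 ± 0.533% (SD, n = 4) for WT saline, 3.49 ± 1.08% (SD, n = 4) for WT insulin, 3.36 ± 0.368% (SD, n = 4) for KO saline and 3.29 ± 0.214% (SD, n = 3) for KO insulin, and without replicate 2 the WT insulin mean was 4.03 ± 0.144% (SD, n = 3). In the ERRα3SA experiment the mRNA share was 4.28, 4.24, 5.09 and 3.98% in the WT livers, 4.47, 4.72, 4.29 and 4.15% in the ERRα3SA livers, 9.83, 10.5, 10.6 and 10.5% in the WT muscles and 18.6, 9.64, 9.26 and 8.92% in the ERRα3SA muscles. ERRα3SA muscle replicate 1, at 18.6%, lay above the 7 other muscles, which had 8.92 to 10.6%.

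**Figure D1:**
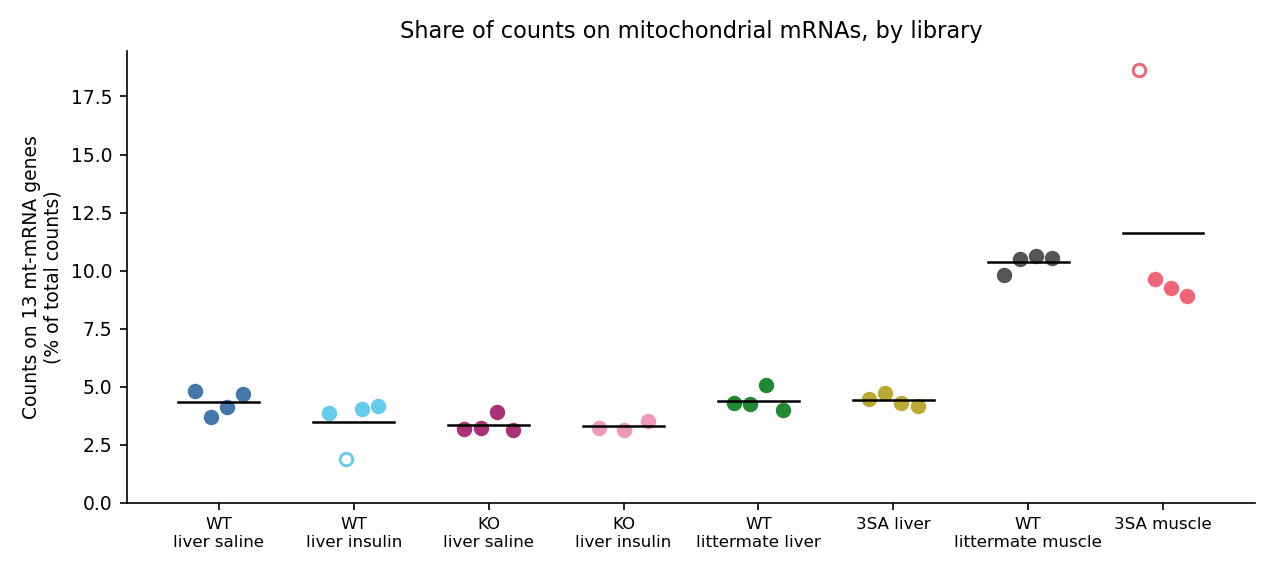
Percent of each library's total counts on the 13 mitochondrial mRNA genes (vertical axis), with a point per library, the 8 groups along the horizontal axis and a line at each group mean. The open points, WT liver insulin replicate 2 (1.88%) and 3SA muscle replicate 1 (18.6%), lie apart from their groups.

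The rRNAs took 0.0458 to 0.0615% of counts in liver, 0.159 to 0.192% in WT muscle and 0.653, 0.189, 0.189 and 0.206% in the ERRα3SA muscles, where the first value is that of replicate 1. The tRNAs took 0.0123 to 0.0169% in liver and 0.0209 to 0.0325% in muscle. Between 85.0 and 95.2% of tRNA counts fell on the 8 minus-strand genes, and mt-Tp held the most in every group. RNAs without a poly(A) tail, 10 genes listed as a check of the library type, summed to 0.602 to 4.33 CPM in the ERRα3SA experiment. Counts on a tRNA gene can come from the tRNA, from an uncut precursor or from the opposite strand, which cannot be told apart here. A tRNA named below stands for the counts on its gene and not for the level of the tRNA. The rRNAs are known as the most abundant mitochondrial RNAs of a cell and had fewer counts than mt-Co1 here, so the shares describe these libraries and not the cell.

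Per kilobase of gene, mt-Co1, the catalytic subunit of complex IV, had the highest level in all 8 groups, followed by mt-Cytb, the mitochondrial subunit of complex III. In WT littermate liver mt-Co1 stood at 11768 ± 1180.5 CPM per kb, mt-Cytb at 6971 ± 688, mt-Nd2 at 5069 ± 949 and mt-Nd1 at 4167 ± 463 (SD, n = 4 for each). mt-Nd4 came next at 2534 ± 149.6, and mt-Nd5 at 2091 ± 325 and the minus-strand mt-Nd6 at 2044 ± 259 differed by less than their spread. In WT muscle the order of levels was mt-Co1 at 25657 ± 638, mt-Cytb at 15041 ± 381, mt-Nd1 at 13598 ± 649.9 and mt-Nd2 at 10820.5 ± 786, and mt-Nd6, mt-Nd4 and mt-Nd5 at 6323 ± 597, 5895 ± 342 and 5844 ± 640.0 CPM per kb lay within their spread of each other. mt-Tp, at 1179.8 ± 119.9 in liver and 1841 ± 220.5 in muscle, ranked eighth in both, above all 6 mRNAs inside the copied stretch.

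Levels split along the genome at the edges of that stretch. In WT littermate liver the 6 mRNAs inside it had 10.8 to 104 CPM per kb (group means) and the 7 others 2044 to 11768. In WT muscle the 6 had 38.3 to 224 CPM per kb and the others 5844 to 25657, and in the WT saline livers of the insulin experiment the 6 had 0.471 to 69.3 and the others 2119 to 9958. The levels of these sets did not overlap in any of the 8 groups. mt-Atp8, the lowest mRNA in 6 of the 8 groups (mt-Nd3 was lower in ERRα3SA liver and WT muscle), had 0 to 7 counts per library of the insulin experiment and 51 to 434 per library of the other, and as the tables were made apart the difference between the experiments was not tested. Counts were also listed under the 7 chromosome 1 pseudogenes, from 110 (Gm10222) to 3695 (Gm10925) per library of the insulin experiment. In the other they ran from 345 (Gm10222) to 13747 (Gm28661) per library. Over identical bases such reads cannot be told from reads of the mitochondrial gene. What part of the low levels comes from the treatment of reads that match both places was not tested, so values of these 6 mRNAs are read between samples only.

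**Figure D2:**
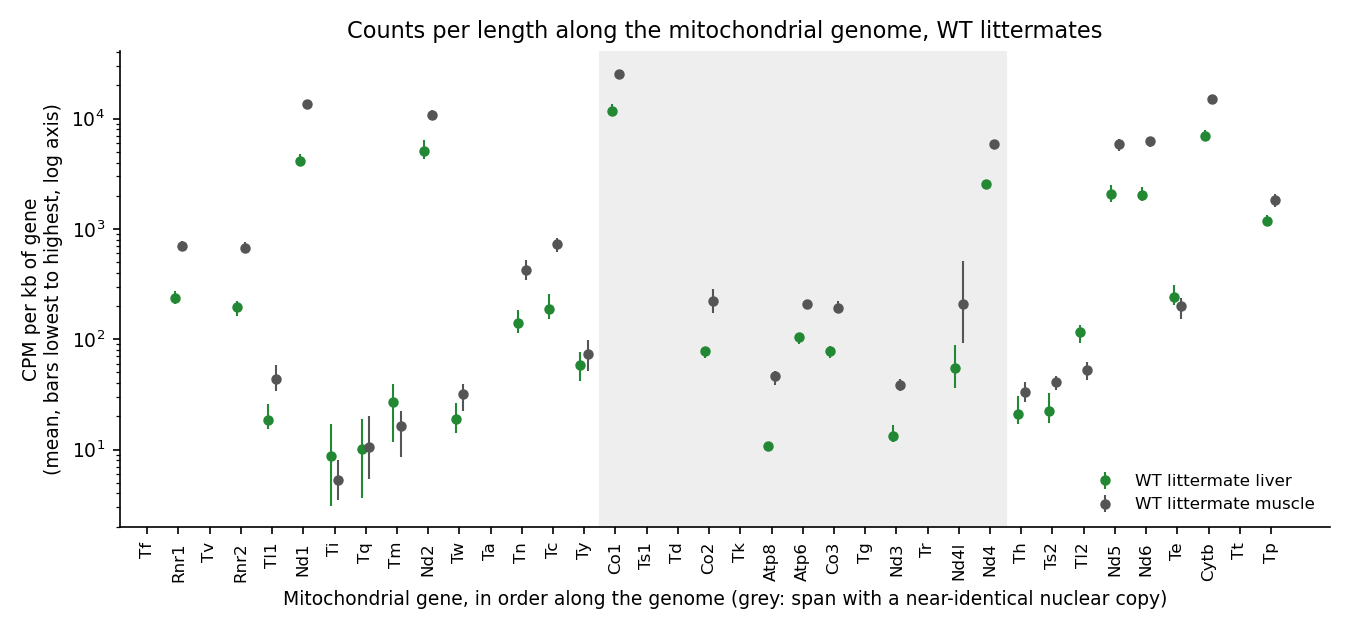
Level of the tested mitochondrial genes (CPM per kb, log axis) in their order along the genome, as group means with bars from the lowest to the highest library, for WT littermate liver (green) and muscle (grey). The shaded genes lie in the copied stretch, by position. The 6 mRNAs wholly inside it lie at 10.8 to 104 CPM per kb in liver, against 2044 to 11768 for the other mRNAs.

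To examine the response to insulin, WT livers given insulin were compared with WT livers given saline. Genes were called where edgeR's quasi-likelihood test over all genes gave an unadjusted p under 0.05 with a fold change of at least 1.2 times, and adjusted p-values are by Benjamini-Hochberg over all genes tested. The value after ± is the standard error of a log2 fold change. Of the 13 mRNAs, 12 passed the filter on low counts, all but mt-Atp8. Of these 12, 1 was called, mt-Co1, which was lower with insulin, where 17.2% of all 13463 genes tested were called in either direction. mt-Co1 stood at 18012, 13593, 12991 and 16943 CPM with saline and at 10541, 6128, 12067 and 12498 CPM with insulin. All 4 insulin values lay under all 4 saline values, the second of them by the widest margin. Its log2 fold change was -0.59 ± 0.22, adjusted p = 0.187, and DESeq2 gave an adjusted p of 0.0468. Without WT insulin replicate 2 mt-Co1 was still called, at -0.42 ± 0.15, adjusted p = 0.213, with 15.6% of all genes called, and without WT saline replicate 1, where 14.9% of all genes were, the number of calls was 0.

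The other tested mRNAs did not pass the test. mt-Cytb stood at 8049, 6218, 7135 and 7601 CPM with saline and 7146, 3657, 7656 and 7781 CPM with insulin, with log2 fold change -0.15 ± 0.21, adjusted p = 0.771. mt-Nd5, a complex I subunit that lies near the end of the plus-strand transcript, stood at 6354, 6151, 6764 and 7318 CPM with saline and 6951, 2286, 6722 and 6370.1 CPM with insulin, with log2 fold change -0.26 ± 0.28, adjusted p = 0.686. In both genes replicate 2 was the lowest of the insulin livers and the other three lay within the range of the saline livers. mt-Nd6, the one mRNA of the minus strand, stood at 1445, 1216, 1308 and 1401 CPM with saline and 1542, 608, 1368 and 1323 CPM with insulin, with log2 fold change -0.15 ± 0.23, adjusted p = 0.791. mt-Atp6, a complex V subunit, stood at 48.4, 35.6, 45.3 and 40.4 CPM with saline and 37.2, 27.6, 45.2 and 45.7 CPM with insulin, with log2 fold change -0.13 ± 0.16, adjusted p = 0.727. Without WT insulin replicate 2 the log2 fold changes were 0.04 ± 0.12 for mt-Cytb, -0.0044 ± 0.11 for mt-Nd5, 0.06 ± 0.12 for mt-Nd6 and -0.01 ± 0.13 for mt-Atp6, with adjusted p-values of 0.922, 0.991, 0.872 and 0.986.

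Over the 12 mRNAs, 11 log2 fold changes were negative and 1 positive, with a median of -0.17, where the median over all genes tested was within 0.03 of 0 in this and each of the other comparisons. Without WT insulin replicate 2, 8 were positive and 4 negative with a median of 0.02. The sign of the median rested on that library, and that of mt-Co1 did not. In this library nuclear genes under 40% GC deviated from the other libraries of the group by a median log2 of 0.02 and those of at least 55% by 0.05.

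In KO livers insulin was followed by 1 call, mt-Atp6, which was higher, where 17.2% of all 13684 genes tested were called. mt-Atp6 stood at 30.2, 30.9, 36.4 and 28.1 CPM with saline and 37.5, 34.2 and 40.5 CPM with insulin, with log2 fold change 0.31 ± 0.13, adjusted p = 0.253. The groups overlapped. The widest log2 fold change belonged to mt-Nd4l, a complex I subunit, which had 5.16, 5.12, 4.53 and 3.99 CPM with saline and 7.56, 4.62 and 6.08 CPM with insulin and did not pass the test (0.43 ± 0.22, adjusted p = 0.330). mt-Co1 stood at 10436, 10251, 13396 and 11583 CPM with saline and 9443, 10840.3 and 11384 CPM with insulin (-0.05 ± 0.16, adjusted p = 0.910), and those values overlapped. The median over the 12 mRNAs was 0.04. The number of calls was 0 without KO saline replicate 1, 2 or 4 or KO insulin replicate 1 or 4, and 2 without KO saline replicate 3 or KO insulin replicate 2, where 12.3 to 18.5% of all genes were called over these fits.

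The interaction, the response of KO livers minus that of WT livers, was tested in the fit of all 4 groups. By edgeR 0 of 12 mRNAs were called and 0 had an unadjusted p under 0.05, where 8.79% of all 14670 genes were called. DESeq2 called 1 of them, mt-Co1. Calls by edgeR numbered 1 without WT saline replicate 2 or 3 or WT insulin replicate 3, and 2 without WT insulin replicate 4 or KO saline replicate 3, where 7.16 to 10.8% of all genes were called over these fits. The smallest p was that of mt-Atp6 (0.44 ± 0.21, adjusted p = 0.575), followed by mt-Co1 (0.54 ± 0.28, adjusted p = 0.600), and the widest difference was that of mt-Nd4l (0.63 ± 0.40, adjusted p = 0.667). Without WT insulin replicate 2 these were 0.32 ± 0.18, 0.37 ± 0.22 and 0.37 ± 0.27. The median over the 12 mRNAs was 0.28 and without WT insulin replicate 2 it was 0.13, with 8.35% of all genes called and no mRNA among them.

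**Figure D3:**
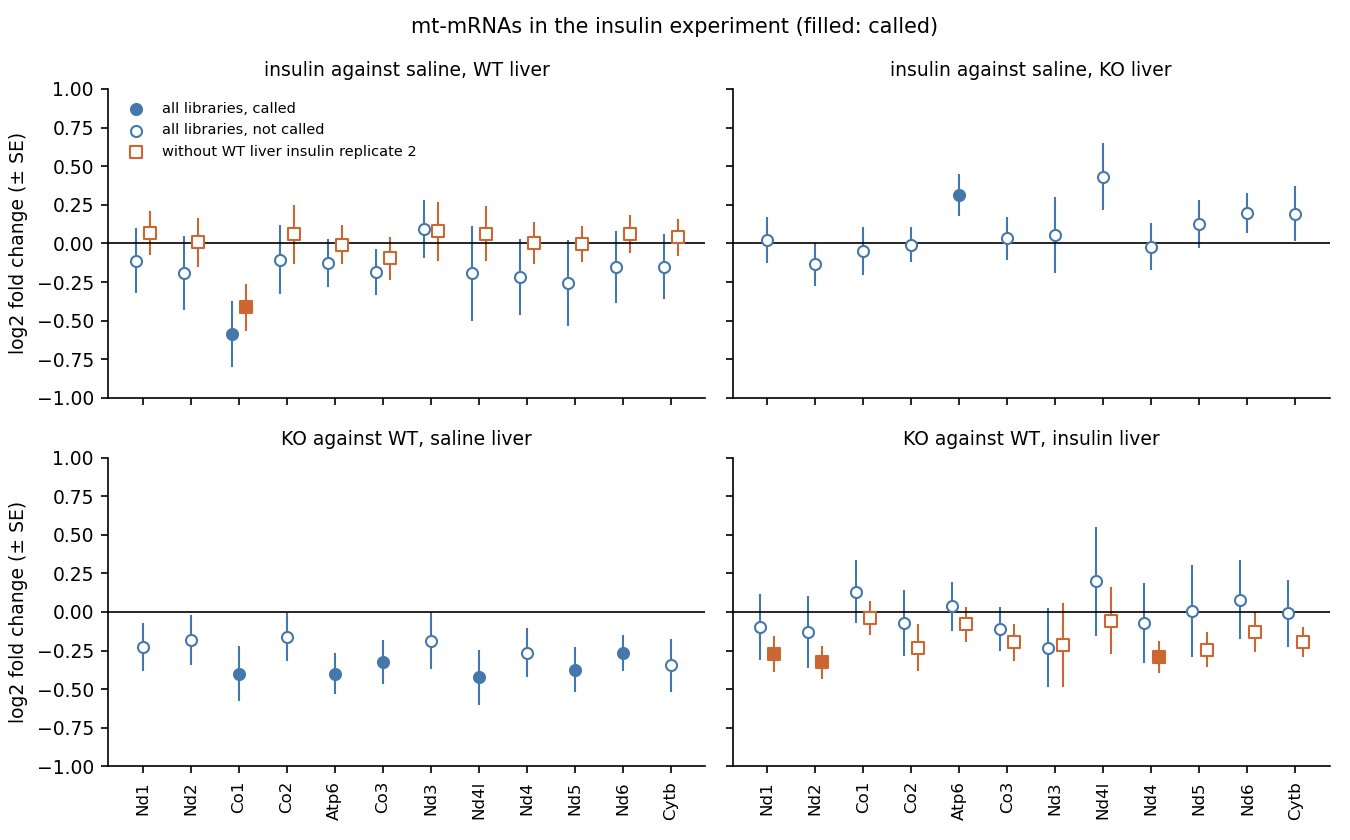
log2 fold changes of the 12 tested mitochondrial mRNAs for insulin in WT liver, insulin in KO liver, KO against WT with saline and KO against WT with insulin, one panel each, with bars for the standard error. Circles are fits of all libraries, squares those without WT insulin replicate 2, and filled marks were called. KO against WT with saline is negative for all 12, with a median of -0.30.

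Loss of ERRα was examined with saline and with insulin. With saline, all 12 tested mRNAs had a negative log2 fold change, with a median of -0.30, and 6 were called lower, where 11.3% of all 13481 genes were called and 5.30% called lower. By edgeR no adjusted p was under 0.265. DESeq2 called these 6 and mt-Cytb, where it called 8.70% of all genes, with no adjusted p under 0.123. Without KO saline replicate 3 edgeR called 8, where 10.1% of all genes were called, and the median was -0.40. The number of calls was 2 without WT saline replicate 1 or KO saline replicate 2, 1 without WT or KO saline replicate 4 and 3 without KO saline replicate 1, where 9.31 to 14.4% of all genes were called over these fits. Calls also numbered 2 with the replicate number as a block and 2 in one fit of all groups. The shares of all genes in these fits are given in the last section. The 6 were mt-Nd4l, mt-Nd5 and mt-Nd6 of complex I, mt-Co1 and mt-Co3 of complex IV and mt-Atp6 of complex V. Each is one product of a shared precursor per strand, so they are not independent measurements. mt-Atp6 stood at 48.4, 35.6, 45.3 and 40.4 CPM in WT and 30.2, 30.9, 36.4 and 28.1 CPM in KO livers, with log2 fold change -0.40 ± 0.13, adjusted p = 0.265. mt-Nd5 stood at 6354, 6151, 6764 and 7318 CPM in WT and 4877, 5429, 5551 and 4164 CPM in KO livers, with log2 fold change -0.37 ± 0.14, adjusted p = 0.326. In mt-Atp6 the genotypes overlapped and in mt-Nd5 they did not overlap.

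mt-Nd4l had the widest change, from 5.48, 5.55, 7.87 and 7.02 CPM in WT to 5.16, 5.12, 4.53 and 3.99 CPM in KO livers (-0.42 ± 0.18, adjusted p = 0.374). mt-Co1 stood at 10436, 10251, 13396 and 11583 CPM in the KO livers against the WT saline values given above (-0.40 ± 0.18, adjusted p = 0.394). KO replicate 3 was the highest of its group for mt-Co1, as it was for the mRNA share (3.91% against 3.16 to 3.21%). mt-Nd6 stood at 1445, 1216, 1308 and 1401 CPM in WT and 1054, 1125, 1171 and 1018 CPM in KO livers (-0.27 ± 0.12, adjusted p = 0.394), and mt-Co3 at 61.3, 41.5, 56.7 and 57.7 CPM in WT and 40.98, 39.3, 49.8 and 38.7 CPM in KO (-0.32 ± 0.14, adjusted p = 0.397). mt-Cytb, at 8049, 6218, 7135 and 7601 CPM in WT and 5460.3, 5216, 6917 and 4599 CPM in KO, did not pass the test by edgeR (-0.35 ± 0.17, adjusted p = 0.451) and was called by DESeq2 (adjusted p = 0.312).

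With insulin, edgeR called 0 of 12 mRNAs between KO and WT livers, 0 had an unadjusted p under 0.05 and DESeq2 called 0, where 9.99% of all 13665 genes were called. The widest log2 fold change was that of mt-Nd3, a complex I subunit, at -0.23 ± 0.26, adjusted p = 0.813. Its values were 4.49, 4.68, 4.84 and 4.78 CPM in WT and 4.94, 2.53 and 3.85 CPM in KO livers. Of the 12 changes, 5 were positive and 7 negative. Without WT insulin replicate 2 all 12 were negative with a median of -0.20, and mt-Nd1 (-0.27 ± 0.11, adjusted p = 0.346), mt-Nd2 (-0.33 ± 0.10, adjusted p = 0.239) and mt-Nd4 (-0.29 ± 0.10, adjusted p = 0.284), all of complex I, were called lower, where 13.2% of all genes were called. With saline the log2 fold changes of these 3 genes were -0.22 ± 0.16, -0.18 ± 0.16 and -0.26 ± 0.16, and the difference between the comparisons is the interaction above. Both comparisons share their samples with the insulin comparisons above.

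In liver, counts on 4 tRNA genes and 1 mRNA differed between ERRα3SA and WT mice. Of the 28 genes that passed the filter in this experiment (13 mRNAs, both rRNAs and 13 tRNAs), 5 were called, where 4.88% of all 13339 genes were. mt-Atp8, mt-Tn and mt-Tc were higher in ERRα3SA livers, and mt-Tl2 and mt-Te were lower. The 9 tRNAs that did not pass (mt-Tf, mt-Tv, mt-Ta, mt-Ts1, mt-Td, mt-Tk, mt-Tg, mt-Tr and mt-Tt) had 0 to 12 counts per library. Without WT liver replicate 1, 2 or 4 the number of calls was 3, where 3.75 to 4.40% of all genes were called. No adjusted p by edgeR was under 0.493, while DESeq2 gave adjusted p-values of 0.00701 for mt-Tl2 and 0.0290 for mt-Te.

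mt-Tl2, one of the leucine tRNAs, printed above with its anticodon TAG, stood at 8.47, 9.51, 8.67 and 6.53 CPM in WT and 4.55, 4.18, 2.67 and 1.61 CPM in ERRα3SA livers. All ERRα3SA livers lay under all WT livers, with a log2 fold change of -1.33 ± 0.28, adjusted p = 0.493. These levels rest on 153 to 283 counts per WT library and 33 to 104 per ERRα3SA library. mt-Te stood at 14.1, 16.7, 21.2 and 14.8 CPM in WT and 11.6, 10.01, 8.24 and 11.9 CPM in ERRα3SA livers (-0.68 ± 0.15, adjusted p = 0.493), again without overlap. mt-Tc stood at 10.9, 11.3, 17.01 and 10.1 CPM in WT and 17.6, 15.1, 15.4 and 17.2 CPM in ERRα3SA (0.41 ± 0.16, adjusted p = 0.639), and mt-Tn at 9.49, 9.40, 13.002 and 8.11 CPM in WT and 15.3, 17.7, 11.3 and 10.99 CPM in ERRα3SA (0.47 ± 0.19, adjusted p = 0.651). In both genes the third WT liver was the highest of its group and reached into the ERRα3SA values. mt-Tp, the tRNA with the most counts, did not pass, at 73.96, 78.9, 90.4 and 72.9 CPM in WT and 80.97, 83.4, 79.98 and 88.8 CPM in ERRα3SA (0.08 ± 0.08, adjusted p = 0.824).

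mt-Atp8 stood at 2.21, 2.37, 2.07 and 2.18 CPM in WT and 3.77, 3.34, 3.30 and 3.61 CPM in ERRα3SA livers. The groups did not overlap, and the log2 fold change was 0.67 ± 0.13, adjusted p = 0.493, on 51 to 74 and 74 to 86 counts per library. mt-Atp6, which shares 43 bases with it, stood at 74.4, 72.8, 74.2 and 61.8 CPM in WT and 86.3, 75.6, 71.4 and 59.9 CPM in ERRα3SA (0.06 ± 0.13, adjusted p = 0.927), so that mt-Atp8 counts were 2.78 to 3.52% of mt-Atp6 counts in WT livers and 4.36 to 6.03% in ERRα3SA livers. The remaining mRNAs spanned log2 fold changes of -0.19 to 0.83, with a median of 0.06 over the 13. The highest was that of mt-Co3 (0.83 ± 0.45, adjusted p = 0.723), which stood at 67.7, 61.7, 64.2 and 53.2 CPM in WT and 77.1, 62.03, 238 and 50.6 CPM in ERRα3SA livers and was highest in replicate 3.

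The abundant mRNAs and the rRNAs did not pass the test in liver. mt-Co1 stood at 17026, 17900.0, 20840.0 and 16958 CPM in WT and 18049, 18853, 17817 and 17229.8 CPM in ERRα3SA livers (-0.01 ± 0.17, adjusted p = 0.995). mt-Cytb stood at 8059, 7649.5, 9022 and 7169 CPM in WT and 8249, 8765, 8034 and 8032 CPM in ERRα3SA (0.06 ± 0.14, adjusted p = 0.943), mt-Nd5 at 3622, 3860.0, 4595 and 3179 CPM in WT and 3231, 3678, 3384 and 3408 CPM in ERRα3SA (-0.15 ± 0.14, adjusted p = 0.824) and mt-Nd6 at 996, 1063, 1247 and 937 CPM in WT and 916, 937, 993 and 870.5 CPM in ERRα3SA (-0.18 ± 0.12, adjusted p = 0.757). mt-Rnr1, the rRNA of the small ribosomal subunit, stood at 261, 219, 215 and 199.8 CPM in WT and 229, 207, 229 and 182 CPM in ERRα3SA (-0.07 ± 0.12, adjusted p = 0.917), and mt-Rnr2, that of the large subunit, at 355, 305, 324 and 258 CPM in WT and 298, 289, 324 and 295 CPM in ERRα3SA (-0.03 ± 0.11, adjusted p = 0.958). The genotypes overlapped in all 6 genes.

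In muscle, calls differed with and without ERRα3SA replicate 1. With all libraries 6 of 28 genes were called, where 4.54% of all 14081 genes were, namely mt-Nd3, mt-Tl1, mt-Tm, mt-Tl2 and mt-Te higher and mt-Tc lower in ERRα3SA, with the smallest adjusted p at 0.303 by edgeR. DESeq2 gave adjusted p-values of 0.000432 for mt-Tl2 and 0.0241 for mt-Tc. Without replicate 1, 8 were called, where 17.4% of all 14363 genes were, and 5 had an adjusted p under 0.05. The number of calls was 3 without WT muscle replicate 2 or 4, where 3.12 and 2.78% of all genes were called, and 11 without ERRα3SA replicate 4, where 4.73% were. The median over the 13 mRNAs was 0.31 with all libraries and -0.19 without replicate 1, where 3 mRNAs were positive and 10 negative.

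mt-Tl2 stood at 3.37, 3.06, 4.43 and 4.01 CPM in WT muscles, at 4.50 CPM in ERRα3SA replicate 1 and at 11.8, 13.6 and 9.56 CPM in replicates 2 to 4. Replicates 2 to 4 lay above all WT values by more than 2 times, and replicate 1 was 4.50 against a highest WT value of 4.43. Its log2 fold change was 1.43 ± 0.26, adjusted p = 0.303 with all libraries and 1.61 ± 0.19, adjusted p = 0.00483 without replicate 1, the opposite direction from liver. mt-Te stood at 16.4, 12.6, 15.2 and 10.6 CPM in WT, 6.97 CPM in replicate 1 and 27.95, 26.5 and 37.2 CPM in the other three, with 0.83 ± 0.33, adjusted p = 1.00 and, without replicate 1, 1.11 ± 0.15, adjusted p = 0.00880. Here replicate 1 lay under all WT muscles and the others above them.

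mt-Atp8 stood at 7.82, 9.51, 10.5 and 9.63 CPM in WT muscles, 19.5 CPM in replicate 1 and 3.05, 3.61 and 4.50 CPM in replicates 2 to 4. Its log2 fold change was -0.04 ± 0.65, adjusted p = 1.00 with all libraries and -1.38 ± 0.16, adjusted p = 0.00483 without replicate 1. mt-Atp6 stood at 139, 145, 149 and 142 CPM in WT muscles, 282 CPM in replicate 1 and 169, 148 and 149 CPM in the other three (0.54 ± 0.31, adjusted p = 1.00, and 0.07 ± 0.08, adjusted p = 0.621 without replicate 1). As a share of mt-Atp6 counts, mt-Atp8 made up 5.64 to 7.07% in WT muscles and 1.81, 2.44 and 3.02% in replicates 2 to 4, while replicate 1, at 6.93%, lay inside the WT range. The bases that mt-Atp8 alone covers are those in lower case in its printed sequence.

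mt-Tc stood at 47.7, 40.8, 49.6 and 54.2 CPM in WT and 21.9, 29.2, 36.4 and 30.3 CPM in ERRα3SA muscles, all under the WT values, with -0.65 ± 0.14, adjusted p = 0.504, and -0.63 ± 0.13, adjusted p = 0.0372 without replicate 1. mt-Ty stood at 6.58, 4.67, 4.83 and 3.45 CPM in WT, 0.629 CPM in replicate 1 and 9.08, 11.2 and 8.85 CPM in the other three. It passed only without replicate 1 (0.96 ± 0.20, adjusted p = 0.0395, against 0.60 ± 0.55, adjusted p = 1.00 with all libraries). These 5 genes, mt-Tl2, mt-Atp8, mt-Te, mt-Tc and mt-Ty, are those with an adjusted p under 0.05 without replicate 1. That library stood apart in mt-Atp8 itself and in the mRNA and tRNA shares. The p-values without it, here and for the difference between the tissues, do not allow for the choice to leave it out. mt-Tn stood at 36.8, 24.3, 27.7 and 32.3 CPM in WT and 5.80, 25.9, 30.7 and 27.1 CPM in ERRα3SA and mt-Tp at 105, 119, 139 and 131 CPM in WT and 229, 92.8, 94.02 and 98.3 CPM in ERRα3SA. In mt-Tn replicate 1 was the lowest library of either genotype and in mt-Tp the highest. mt-Tp was called lower without it (-0.42 ± 0.11, adjusted p = 0.0648), as was mt-Nd6 (-0.28 ± 0.11, adjusted p = 0.159), and mt-Nd3 was called higher (0.28 ± 0.11, adjusted p = 0.168).

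Besides mt-Tl2, mt-Te and mt-Tc, the genes called with all libraries were mt-Nd3, mt-Tl1 and mt-Tm. mt-Nd3 stood at 11.7, 13.9, 12.5 and 15.2 CPM in WT and 24.3, 16.6, 15.7 and 17.8 CPM in ERRα3SA muscles (0.61 ± 0.25, adjusted p = 1.00), mt-Tl1 at 4.41, 2.63, 3.55 and 2.53 CPM in WT and 4.68, 3.88, 5.17 and 4.42 CPM in ERRα3SA (0.56 ± 0.25, adjusted p = 1.00) and mt-Tm at 1.55, 0.594, 1.36 and 1.04 CPM in WT and 7.42, 1.79, 2.43 and 1.26 CPM in ERRα3SA (1.73 ± 0.67, adjusted p = 1.00). Without replicate 1 mt-Nd3 was still called, while mt-Tl1 (0.42 ± 0.22, adjusted p = 0.286) and mt-Tm (0.66 ± 0.36, adjusted p = 0.305) did not pass. The widest log2 fold change, that of mt-Tq, did not pass (2.44 ± 1.17, adjusted p = 1.00) and was negative without replicate 1 (-0.38 ± 0.47, adjusted p = 0.661). mt-Tq stood at 0.581, 0.382, 1.44 and 0.602 CPM in WT and 11.2, 0.574, 0.728 and 0.474 CPM in ERRα3SA muscles, and only replicate 1 exceeded 2 CPM.

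In both rRNAs ERRα3SA replicate 1 was the highest library by more than 2 times. mt-Rnr1 stood at 743, 624, 621 and 716 CPM in WT muscles, 2429 in ERRα3SA replicate 1 and 758, 759 and 860.3 in replicates 2 to 4. Its log2 fold change was 1.05 ± 0.48, adjusted p = 1.00 with all libraries and 0.19 ± 0.08, adjusted p = 0.198 without replicate 1. mt-Rnr2 stood at 1108, 975, 966 and 1203 CPM, 4104 CPM and 1128, 1133 and 1195 CPM in the same order (1.07 ± 0.53, adjusted p = 1.00, and 0.08 ± 0.09, adjusted p = 0.647). Neither passed in either fit.

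Among the abundant mRNAs, mt-Co1 stood at 38254, 40582, 39798 and 39927 CPM in WT muscles, 89682 in replicate 1 and 35049.9, 35312 and 33908 in the other three (0.49 ± 0.43, adjusted p = 1.00, and -0.23 ± 0.10, adjusted p = 0.217 without replicate 1). mt-Cytb stood at 16805, 16924, 17331 and 17767 CPM in WT and 21982, 16248, 15559 and 14477 CPM in ERRα3SA (0.12 ± 0.25, adjusted p = 1.00, and -0.20 ± 0.10, adjusted p = 0.282 without replicate 1), mt-Nd5 at 9328, 10202, 12056 and 11053 CPM in WT and 16109, 10118, 9831 and 9839 CPM in ERRα3SA (0.25 ± 0.29, adjusted p = 1.00, and -0.14 ± 0.12, adjusted p = 0.486 without replicate 1) and mt-Nd6 at 2847, 3289, 3558 and 3432 CPM in WT and 2782, 2744, 2834 and 2764 CPM in ERRα3SA (-0.15 ± 0.17, adjusted p = 1.00, and -0.28 ± 0.11, adjusted p = 0.159 without replicate 1). The changes of mt-Co1, mt-Cytb and mt-Nd5 turned from positive to negative without replicate 1, and none of these 3 passed in either fit. Replicate 1 was high for mt-Co1, mt-Cytb and mt-Nd5 and within its group for mt-Nd6. Of all mRNA counts, mt-Co1 took 48.1% in that library and 27.2 to 42.6% in all others of both experiments, and mt-Nd6 took 1.49% against 2.85 to 3.10% in the other ERRα3SA muscles.

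**Figure D4:**
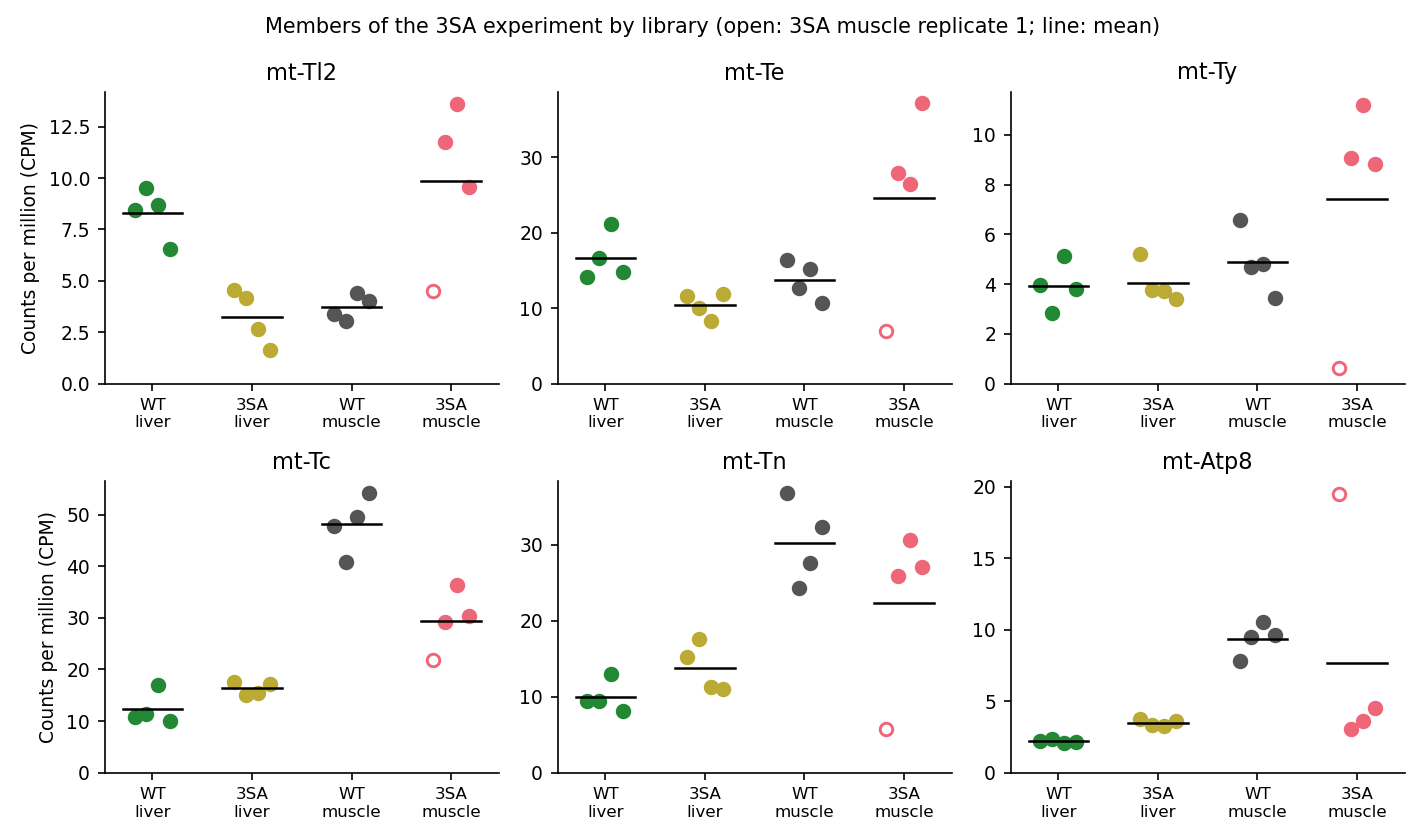
CPM (vertical axes) of mt-Tl2, mt-Te, mt-Ty, mt-Tc, mt-Tn and mt-Atp8 in each library of the 4 groups of the 3SA experiment, with open points for 3SA muscle replicate 1 and lines at group means. mt-Tl2 lies lower in 3SA than in WT livers and, outside replicate 1, higher in 3SA than in WT muscles.

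Deviations by GC content and the fast fibre markers moved with replicate 1. The mitochondrial mRNAs hold 31.9 to 41.1% GC, the rRNAs 35.4 to 35.8% and the tRNAs 17.1 to 44.9%. In replicate 1, 579 nuclear genes under 40% GC deviated from the other libraries of the group by a median log2 of 0.63 and 2116 genes of at least 55% by -0.89, and the Spearman correlation of deviation and GC over 9890 genes was -0.65 as a description of this library. The medians of the 4 WT muscles were between -0.10 and 0.09 in both classes. The summed level of the 7 fast fibre markers was 152796 CPM in replicate 1, against 97216 to 122613 CPM in the 7 other muscles, and *Esrra* had 432 counts there against up to 4020 in its group. The 9 slow or oxidative fibre markers summed to 6201 to 7327 CPM in WT and to 5313 to 8810 CPM in ERRα3SA muscles. Fibroblast markers summed to 1207 to 1628 CPM in WT and 1036 to 3272 CPM in ERRα3SA muscles. Macrophage markers summed to 3.52 to 7.14 CPM and 3.28 to 21.7 CPM, and endothelial markers to 225 to 251 CPM and 213 to 247 CPM, in the same order. Among the tRNAs with values given above, mt-Tn, mt-Ty, mt-Te and mt-Tc had their lowest muscle level in replicate 1. Their GC content is 33.8, 34.3, 34.8 and 36.4%. mt-Tq, mt-Tp and mt-Tm, at 36.6, 44.8 and 44.9% GC, had their highest muscle level there, as did both rRNAs. The part of GC content, fibre content, other cell types and the library itself in these differences was not tested.

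**Figure D5:**
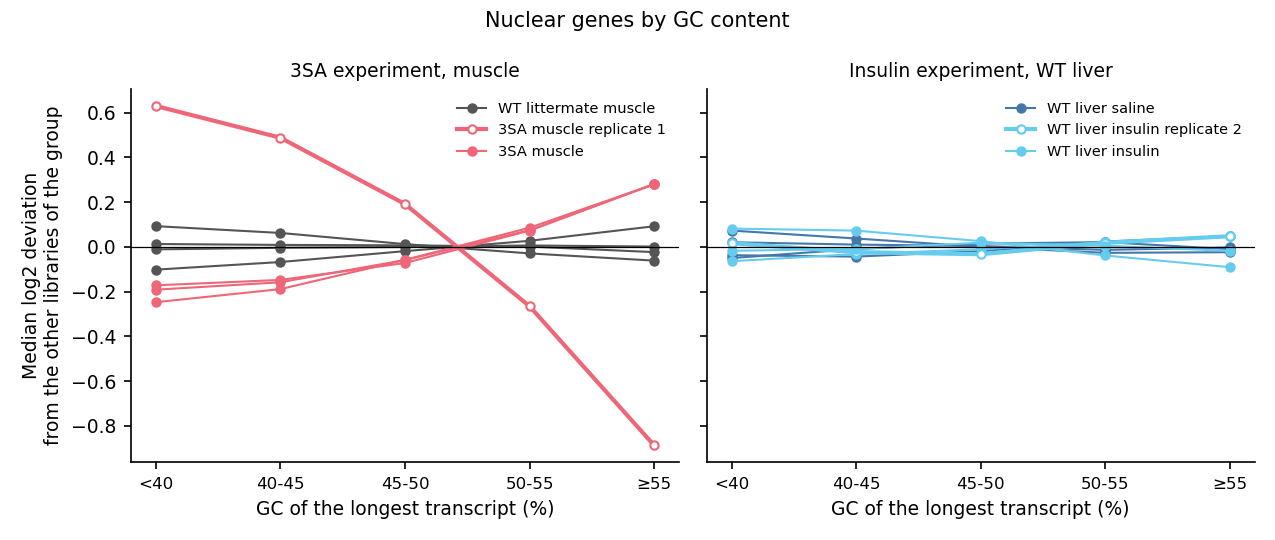
Median log2 deviation of nuclear genes from the other libraries of their group, by class of GC content (percent, horizontal axis), with a line per library of both muscle groups (left) and both WT liver groups of the insulin experiment (right). 3SA muscle replicate 1 falls from 0.63 under 40% GC to -0.89 at 55% GC or more.

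The difference between the tissues, the ERRα3SA effect in muscle minus that in liver, was tested in one fit of the 4 groups. With all libraries 5 genes were called, all tRNAs, where 5.57% of all 15688 genes were. mt-Tl2 differed by 2.74 ± 0.42, adjusted p = 0.107, mt-Te by 1.48 ± 0.38, adjusted p = 0.555 and mt-Tl1 by 0.89 ± 0.37, adjusted p = 0.853, so that their effect was higher in muscle. mt-Tc differed by -1.08 ± 0.22, adjusted p = 0.270 and mt-Tn by -0.94 ± 0.42, adjusted p = 0.867, so that theirs was lower in muscle. The number of calls was 3 without ERRα3SA liver replicate 2, 9 without ERRα3SA muscle replicate 3 and 10 without replicate 2 or 4, where 5.03, 5.82, 5.78 and 5.91% of all genes were called. For mt-Tl2 and mt-Tc, DESeq2 gave adjusted p-values of 1.76e-06 and 0.0103.

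Without ERRα3SA muscle replicate 1, 7 genes were called, where 17.3% of all 16019 genes were, and 4 had an adjusted p under 0.05. These were mt-Atp8 (-2.10 ± 0.20, adjusted p = 0.000317), mt-Te (1.74 ± 0.22, adjusted p = 0.00270), mt-Tl2 (2.91 ± 0.38, adjusted p = 0.00343) and mt-Tc (-1.07 ± 0.23, adjusted p = 0.0303). mt-Tn was called (-0.67 ± 0.27, adjusted p = 0.199) and mt-Tl1 was not (0.73 ± 0.36, adjusted p = 0.294). In each of the 4 genes with an adjusted p under 0.05 the ERRα3SA effect in liver and that in muscle without replicate 1 had opposite signs. These genes were picked by the difference between the tissues, and that choice favours opposite signs. The ratio of mt-Tl2 to mt-Tc counts, as a description of 2 genes with opposite changes, was 0.510 to 0.841 in WT livers, 0.0935 to 0.277 in ERRα3SA livers, 0.0706 to 0.0893 in WT muscles and 0.206 (replicate 1), 0.403, 0.374 and 0.315 in ERRα3SA muscles. The median over the 13 mRNAs was 0.17 with all libraries and -0.26 without replicate 1.

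The mitochondrial mRNAs and rRNAs were higher in muscle than in liver. Of 28 genes, 24 were called between WT muscle and WT liver, where 84.2% of all 14886 genes were. Of these 21 were higher in muscle (13 mRNAs, both rRNAs and 6 tRNAs), where 42.0% of all genes were called higher, and 3 tRNAs were lower. The median over the 13 mRNAs was 1.35, from 0.88 for mt-Atp6 to 1.95 for mt-Atp8. The genes with the smallest p were mt-Rnr1 (1.45 ± 0.10, adjusted p = 6.17e-09), mt-Rnr2 (1.64 ± 0.11, adjusted p = 6.96e-09), mt-Atp8 (1.95 ± 0.14, adjusted p = 9.56e-09), mt-Nd6 (1.50 ± 0.12, adjusted p = 2.57e-08) and mt-Tc (1.83 ± 0.15, adjusted p = 2.95e-08). mt-Tl2 (-1.29 ± 0.16, adjusted p = 3.27e-06), mt-Tm (-0.84 ± 0.38, adjusted p = 0.0493) and mt-Te (-0.42 ± 0.14, adjusted p = 0.0149) were lower in muscle. These values share their samples with the ERRα3SA comparisons.

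The other subunits of the same complexes are nuclear, and a list of 74 of them (complexes I, III, IV and V) was set beside the mitochondrial mRNAs. Insulin in WT liver called 25 of 71 tested higher and 0 lower, where 17.2% of all genes were called in either direction, with complex medians of 0.27 to 0.39. Without WT insulin replicate 2, 6 of 71 were called higher and 0 lower, where 15.6% of all genes were called, with complex medians of 0.16 to 0.26. By edgeR 0 of 71 had an adjusted p under 0.05 in either fit, and by DESeq2 with all libraries 2 of 73 did. In KO liver 0 were higher and 2 lower of 70, where 17.2% of all genes were called.

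KO against WT livers with saline called 1 nuclear subunit higher and 28 lower of 71, where 5.30% of all genes were called lower. With insulin 0 were higher and 53 lower of 70, where 9.99% of all genes were called in either direction, and without WT insulin replicate 2, 50 were lower, where 13.2% were called. By edgeR 0 nuclear subunits had an adjusted p under 0.05 with saline and 1 with insulin (4 without replicate 2). By DESeq2 with all libraries these numbers were 11 with saline and 28 with insulin. Complex medians were -0.29 to -0.13 with saline, beside the mitochondrial median of -0.30. With insulin they were -0.72 to -0.46 beside a mitochondrial median of -0.04, and without replicate 2 -0.70 to -0.35 beside -0.20. The interaction called 0 higher and 18 lower of 71, where 8.79% of all genes were called, with complex medians of -0.46 to -0.33 beside a mitochondrial median of 0.28. Without replicate 2 it called 12 lower, where 8.35% of all genes were called, with complex medians of -0.34 to -0.24 beside 0.13.

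In ERRα3SA liver 0 of 71 nuclear subunits were called by edgeR and 0 by DESeq2, and 0 had an unadjusted p under 0.05 by either tool, where edgeR called 4.88% of all genes. ERRα3SA muscle called 18 of 73 higher and 0 lower with all libraries, where 4.54% of all genes were called in either direction. By edgeR 0 of 73 had an adjusted p under 0.05, and by DESeq2 5 of 73 did. Without replicate 1, 39 were higher and 1 lower, where 17.4% of all genes were called, and 30 had an adjusted p under 0.05. Complex medians were 0.19 to 0.26 and, without replicate 1, 0.19 to 0.39, beside mitochondrial medians of 0.31 and -0.19. WT muscle against WT liver called 53 higher and 9 lower of 73, where 84.2% of all genes were called and 42.0% called higher, with complex medians of 0.56 to 0.75, beside the mitochondrial median of 1.35.

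Nuclear genes that act on mitochondrial DNA and RNA were taken from lists of 10 genes of transcription, 36 of RNA processing, modification and stability, 15 of DNA maintenance and 20 of tRNA charging. The last 20 are called synthetases below, although *Qrsl1*, *Gatb* and *Gatc* among them encode subunits of an amidotransferase. Of the transcription genes 0 were called in 7 of the 8 comparisons other than tissue, and with all libraries 0 had an unadjusted p under 0.05 there by edgeR or by DESeq2, where 4.54 to 17.2% of all genes were called. In the remaining comparison *Mterf2*, a member of the termination factor family, was called lower with insulin in KO liver (-1.11 ± 0.33, adjusted p = 0.105), 1 of 9 tested where 17.2% of all genes were called. DESeq2 called 1 of 10 transcription genes lower there, and 1 had an adjusted p under 0.05, against 0 by edgeR. In WT liver *Mterf2* was called lower with insulin only without WT insulin replicate 2 (-1.63 ± 0.50, adjusted p = 0.134, against -0.91 ± 0.57, adjusted p = 0.447 with all libraries). Insulin in WT liver called 4 of 36 processing genes higher and 1 lower, where 17.2% of all genes were called, and 3 higher and 1 lower without replicate 2, where 15.6% were. The 5 called with all libraries include *Fastkd2*, which binds mitochondrial mRNAs and rRNA (0.52 ± 0.14, adjusted p = 0.0809). Of the maintenance genes *Slc25a33*, a pyrimidine nucleotide carrier of the inner membrane, was higher with insulin in WT liver (1.03 ± 0.14, adjusted p = 0.00403, and 1.03 ± 0.15, adjusted p = 0.00775 without replicate 2) and in KO liver (0.47 ± 0.13, adjusted p = 0.0940), and its response was smaller in KO (-0.56 ± 0.19, adjusted p = 0.492, and -0.56 ± 0.20, adjusted p = 0.492 without replicate 2). *Cars2*, which charges the tRNA of mt-Tc, was higher with insulin in WT liver (0.58 ± 0.14, adjusted p = 0.0481), and without replicate 2 it was called with an adjusted p above 0.05 (0.57 ± 0.14, adjusted p = 0.0635). Of the 20 synthetases 2 were called higher and 1 lower with all libraries, and 2 higher and 0 lower without replicate 2. Of the 15 maintenance genes 2 were higher and 2 lower, and 1 higher and 2 lower without it.

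KO against WT livers with saline called 0 of 36 processing genes higher and 3 lower, where 5.30% of all genes were called lower, led by *Fastkd1* (-0.65 ± 0.12, adjusted p = 0.104) and *Fastk* (-0.41 ± 0.10, adjusted p = 0.181), both of the FASTK family of RNA-binding proteins. With insulin 1 was higher and 6 lower, where 9.99% of all genes were called, led by *Tbrg4*, of the same family (-0.58 ± 0.15, adjusted p = 0.207), and without WT insulin replicate 2, 2 were higher and 5 lower, where 13.2% were called (-0.64 ± 0.14, adjusted p = 0.111 for *Tbrg4*). ERRα3SA liver called 0 of 36 processing genes by edgeR and by DESeq2 (1 had an unadjusted p under 0.05 by each tool), where 4.88% of all genes were called by edgeR. Of 20 synthetases edgeR called 1 and DESeq2 called 0 (1 had an unadjusted p under 0.05 by DESeq2), a share near that of all genes. The 1 was *Lars2*, which charges the leucine tRNAs mt-Tl1 and mt-Tl2 (-0.26 ± 0.10, adjusted p = 0.639). ERRα3SA muscle called 4 processing genes higher and 0 lower, where 4.54% of all genes were called, led by *Mrm1*, an rRNA methyltransferase (0.59 ± 0.22, adjusted p = 1.00), and 1 synthetase higher, *Mars2* (0.33 ± 0.12, adjusted p = 1.00). Without replicate 1, 8 processing genes were higher and 0 lower, 3 of them with an adjusted p under 0.05, among them *Mrm1* (0.78 ± 0.10, adjusted p = 0.00880), and 5 synthetases were higher, 1 of them with an adjusted p under 0.05, where 17.4% of all genes were called. Between WT muscle and WT liver 10 processing genes were higher and 14 lower, where 84.2% of all genes were called, with *Fastk* among the higher (2.24 ± 0.06, adjusted p = 2.24e-13) and *Hsd17b10*, a subunit of the enzyme that cuts the 5′ end of mitochondrial tRNAs, among the lower (-2.05 ± 0.10, adjusted p = 8.90e-11). With all libraries the list medians were between -0.21 and 0.11 in the comparisons other than tissue, where the median over all genes was within 0.03 of 0. For insulin in WT liver they were between -0.07 and -0.007, and between -0.17 and -0.03 without WT insulin replicate 2. List medians of the other comparisons are not given here without a library that stood apart, so the range describes all libraries only.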

How the data were processed

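RNA-seq was measured in 31 samples of 8 groups, 15 livers of the insulin experiment and 16 livers and muscles of the ERRα3SA experiment. The deposited tables hold raw, unnormalized counts per gene. Libraries were made with a NEBNext Ultra kit and read as pairs, and the authors mapped the reads and counted them per gene with STAR (build mm10). The treatment of reads that match several genes and of strand is not given in the sources used here.

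Counts of the 37 mitochondrial genes were read from both tables by gene identifier and given as CPM, that is scaled to 1000000 total counts of the library (35871419 to 48317108 and 20481405 to 33412022 counts), and as percent of total counts. log2 fold changes were fitted with edgeR 4.0.16 in R 4.3.3 by the quasi-likelihood test, after TMM normalization and its filterByExpr filter, on all genes of a table and on the groups compared only (all 4 groups for an interaction). Genes were called at an unadjusted p under 0.05 with a fold change of at least 1.2, and p-values were adjusted by Benjamini-Hochberg over all genes tested. The fits were tested on simulated data. Near-identical nuclear copies were found with BLAST+ 2.17.0, and tables were made with Python 3.11.15 and pandas 2.3.3. Sequences, positions and symbols came from GENCODE vM21 (GRCm38).

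Alternatives were DESeq2 1.42.0, scaling by total counts, no filter on low counts, all groups in one fit, the replicate number as a block, and each replicate left out. Replicates of a group were compared by chi-square over genes, and the closest pair had 6.30 per degree of freedom, so none were merged. The labels do not say that replicates came from separate cages or days, so p-values measure the spread between these samples.

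Values in every sample were given for both rRNAs, mt-Co1, mt-Cytb, mt-Nd5, mt-Nd6, mt-Atp8, mt-Atp6, 3 abundant tRNAs, members with an adjusted p under 0.05 and, per comparison, the member with the widest fold change. The rule took the tRNAs from the insulin experiment, whose table lists none, so mt-Tp, mt-Tc and mt-Tn were taken from the ERRα3SA experiment after their values were seen, as were the other members named. Members and lists were chosen with earlier results of these data known.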

Additional observations from a re-analysis of the deposited data

Results flagged for a closer look

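Of 118 values checked in groups of 4 libraries, 20 held a library far from the other 3 of its group by Dixon's test, which chance alone gives in about 1 of 20 groups, and 11 of them were ERRα3SA muscle replicate 1. This library stood apart in its share of counts on mRNAs (18.6%), rRNAs (0.653%) and tRNAs (0.0325%). It also stood apart in the levels of mt-Rnr1 (2429 CPM), mt-Rnr2 (4104 CPM), mt-Co1 (89682 CPM), mt-Nd5 (16109 CPM), mt-Atp8 (19.5 CPM), mt-Atp6 (282 CPM), mt-Co3 (283 CPM) and mt-Tp (229 CPM). WT insulin liver replicate 2 was low in the mRNA share (1.88%), mt-Cytb (3657 CPM) and mt-Nd5 (2286 CPM).

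Single values far from their group were the mRNA share of KO saline liver replicate 3 (3.91%), mt-Atp6 in WT littermate liver replicate 4 (61.8 CPM), mt-Nd3 in ERRα3SA liver replicate 1 (7.01 CPM), mt-Co3 in ERRα3SA liver replicate 3 (238 CPM), and mt-Nd4l in WT littermate muscle replicate 2 (152 CPM) and ERRα3SA muscle replicate 4 (37.9 CPM). What set these libraries apart was not tested.

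The ERRα3SA effect differed between muscle and liver, at an unadjusted p under 0.05 of the interaction by edgeR, for 5 tRNAs. On the log2 scale the effect in muscle minus that in liver was 2.74 for mt-Tl2, 1.48 for mt-Te, 0.89 for mt-Tl1, -0.94 for mt-Tn and -1.08 for mt-Tc, and 0 of the 5 had an adjusted p under 0.05 by edgeR with all libraries.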

How the results depend on the processing

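The number of mitochondrial genes called depended on the library left out. Leaving out each replicate in turn gave 0 to 1 calls for insulin in WT liver, 0 to 2 for insulin in KO liver, 1 to 9 for KO against WT with saline, 0 to 3 with insulin, 0 to 2 for the interaction, 3 to 6 for ERRα3SA in liver, 3 to 11 in muscle and 3 to 10 for muscle minus liver. In the same fits the share of all genes called was, in that order, 13.1 to 18.3%, 12.3 to 18.5%, 9.31 to 14.4%, 5.78 to 13.2%, 5.82 to 10.8%, 3.75 to 6.60%, 2.64 to 17.4% and 4.44 to 17.3%, and the last 2 were at most 5.01 and 5.91% in the fits that keep ERRα3SA muscle replicate 1. The median log2 fold change over the mRNAs then spanned -0.40 to -0.23 for KO against WT with saline, -0.19 to 0.46 for ERRα3SA in muscle and -0.26 to 0.40 for muscle minus liver. The log2 fold change of mt-Atp8 in ERRα3SA muscle, -0.04 with all libraries, changed sign, from -1.38 to 0.27 (0.04 without WT littermate muscle replicate 3, and 0.27, 0.24 and 0.21 without ERRα3SA replicates 2, 3 and 4). The lowest medians of ERRα3SA in muscle and of muscle minus liver are those without ERRα3SA muscle replicate 1, and that of KO against WT with saline the one without KO replicate 3. The cause was not tested. Over all fits without 1 replicate, 56 counts of calls stayed within 1.5 times and 29 did not, and of the values of single named genes 235 kept direction and side of the threshold, 69 lost the call, 3 gained it and 4 changed sign.

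Scaling by total counts gave 0 calls for insulin in KO liver, where 17.5% of all genes were called, and medians of 0.15 for ERRα3SA in muscle and 0.045 for muscle minus liver. One fit of all groups gave 0 calls for insulin in KO liver, 2 for KO against WT with saline, 3 for ERRα3SA in liver and 10 in muscle, where 13.9, 9.96, 3.35 and 6.46% of all genes were called. Without a filter on low counts there was 1 call for the interaction, 10 for ERRα3SA in muscle and 11 for muscle minus liver, where 8.06, 4.05 and 4.31% of all genes were called. DESeq2 gave 1 call for the interaction, where it called 6.63% of all genes, and it gave no p for some members with an outlying count, such as mt-Rnr2 in muscle. Under these and the other planned settings 173 values of single named genes kept direction and side of the threshold and 19 lost the call. The share of counts on mitochondrial genes in ERRα3SA muscle, with a mean of 11.9% over all libraries, had a median of 9.66%. The median over the 5 mRNAs outside the nuclear copy, an alternative chosen after seeing the data, had the sign of the main median in 9 of 9 comparisons.

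Deviations of same-numbered samples correlated at -0.34 to 0.51. Between WT saline and WT insulin, and between WT and KO saline, 3 of 4 pairs were over 0.1, but no comparison had all of its pairs over 0.1, so the samples were not taken as paired. With the replicate block, there were 2 calls for insulin in KO liver, 2 for KO against WT with saline and 2 for the interaction, where 17.6, 11.0 and 8.49% of all genes were called, and the median for ERRα3SA in muscle was 0.14. tRNA values rest on few counts, and differences in the 9 tRNAs with at most 12 counts per library were not detectable at this depth.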
